A study of Mus musculus with 55 samples.

Results

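The 10 genes described here are the matrix metalloproteinase genes Mmp2, Mmp7, Mmp12, Mmp14, Mmp19 and Mmp23, the metalloproteinase inhibitor genes Timp1, Timp2 and Timp3, and the related secreted protease gene Adamts1. They were taken by symbol from the deposited count tables, and all 10 were found among the 34490 symbols that the tables of both sequencing batches share. Their expression was followed in whole livers of mice lacking the ubiquitin ligases Rnf43 and Znrf3 in hepatocytes (R&Z del) and of mice carrying the same floxed alleles without recombination (R&Z flox), all C57BL/6. Deletion was induced in adults either with tamoxifen through AlbCre-ERT2 or with an AAV8 virus expressing Cre from the hepatocyte TBG promoter. Controls received vehicle or a null virus, so other liver cells kept both genes in every group.

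RNA came from undamaged livers at 1, 3 and 7 months after deletion (1M, 3M, 7M), from livers at 4, 50 and 170 days of recovery from chronic damage with repeated injections of the hepatotoxin CCl4 (CD 4d, 50d, 170d), and from livers at 7 and 21 days after partial hepatectomy (PHx). The labels mark chronic damage for both genotypes, and the study describes R&Z flox livers damaged by this regimen, although its methods also mention unrecombined controls given the oil alone. The first batch held 23 libraries, namely 4 undamaged R&Z flox, 3 undamaged R&Z del, 2 of each genotype at CD 4d, 1 R&Z flox and 2 R&Z del at CD 50d, 2 of each at CD 170d, and 5 with conflicting labels that entered no group. The second batch held 30 libraries, namely 4 of each genotype at 1M, 3 R&Z flox and 1 R&Z del at 3M, 3 of each at 7M, and 3 of each at both times after PHx. The labels give tamoxifen as induction for the grouped first-batch libraries and the second-batch 7M libraries. They give virus for the other second-batch libraries. The same induction is named for R&Z flox libraries, although the study describes vehicle or a null virus for controls.

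Metalloproteinases are zinc-dependent enzymes that are made as inactive precursors and cut collagens, elastin, basement membrane proteins and cell surface proteins. TIMPs bind their active sites, and the balance of both sets how fast matrix is built up or removed. In the injured liver, stellate cells, macrophages and biliary cells are known sources of these proteins, while healthy hepatocytes are not their main source.

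Total counts ranged from 22678922 to 38692089 in the first batch and from 11721687 to 32168223 in the second. Libraries of the second batch detected fewer symbols, 12249 to 15717, than those of the first, 18106 to 22604. Reads on the targeted genes Rnf43 and Znrf3 were higher in R&Z del livers, by a log2 fold change of 1.70 ± 0.30 (SE) and 1.90 ± 0.22 at CD 4d, so these counts over whole genes do not show the deleted exons. The counts of 1 library, R&Z flox replicate 3 at 7 days after PHx, went against its listed sex. In the first batch, R&Z flox replicate 1 at CD 170d stood apart from replicate 2, with a sum of 5 cholangiocyte markers (Krt19, Krt7, Epcam, Sox9, Cftr) of 111 against 13.7 CPM, counts divided by the library total and scaled to a common depth, and the values of Mmp7, Mmp12 and Timp1 that rest on it are given with and without it. Labels do not say that libraries of a group came from separate mice, so p-values measure only the spread between these libraries.

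Because Mmp7 showed the widest range of all members, the sequence at its start is printed first, beside that of Mmp12, the other member with an AP-1 motif in its window. Both are RefSeq promoter windows of build GRCm38.p6, plus strand, from 250 bases before to 50 bases after an annotated transcript start. Capitals mark matches to the AP-1 motif with the letters TGAGTCA or with the letters TGACTCA, and to the TCF/LEF motif with the letters CTTTGAA, with the letters CTTTGAT, with the letters CTTTGTA or with the letters CTTTGTT, searched on both strands.
Mmp7, chr9:7691840-7692139: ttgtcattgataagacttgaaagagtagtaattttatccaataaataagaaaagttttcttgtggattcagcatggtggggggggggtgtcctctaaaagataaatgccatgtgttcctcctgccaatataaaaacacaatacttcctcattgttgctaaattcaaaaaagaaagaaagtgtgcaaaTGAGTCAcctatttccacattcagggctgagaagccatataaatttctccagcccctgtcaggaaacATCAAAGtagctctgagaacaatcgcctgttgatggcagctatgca
Mmp12, chr9:7347124-7347423: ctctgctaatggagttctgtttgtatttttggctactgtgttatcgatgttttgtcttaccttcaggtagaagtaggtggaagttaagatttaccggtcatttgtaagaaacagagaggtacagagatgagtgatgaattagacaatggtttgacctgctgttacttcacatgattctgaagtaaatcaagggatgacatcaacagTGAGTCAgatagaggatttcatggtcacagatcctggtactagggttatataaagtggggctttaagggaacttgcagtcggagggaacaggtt
In the Mmp7 window, the AP-1 motif began at position -63 and the reverse complement of a TCF/LEF motif at position 5, counted from the start. The AP-1 motif of the Mmp12 window began at position -44. RefSeq windows were found for 8 of the 10 members, 11 windows in all, and Mmp2 and Mmp19 had no entry. The AP-1 motif was present in 2 and the TCF/LEF motif in 4 of these 11 windows, against 5.2% and 16.9% of 32851 windows of the same length, and 1 window, that of Mmp7, held both, against 0.938%. Of the other TCF/LEF matches, 1 was the same Mmp7 site seen from a second annotated start downstream, 1 lay at position -148 of the other Mmp12 start and 1 at position -218 of the Adamts1 start. These matches describe the letters only, and no binding was measured.

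In the mm10 annotation the members lie on 8 chromosomes. Mmp7 (chr9:7692090-7699585, plus strand) and Mmp12 (chr9:7344397-7360461, plus strand) lie on the same chromosome. Reads were counted over exons without regard to strand, and exons of Mmp19 overlap those of Tmem198b over 1062 bases, those of Mmp2 overlap Gm45472 over 612 bases, those of Mmp7 overlap AV064505 over 123 bases and those of Mmp23 overlap Mib2 over 72 bases, so these counts are uncertain in those stretches. Levels of different genes were compared as CPM per kilobase of exon. In undamaged R&Z flox livers of the first batch (n = 4), Mmp19 was highest with 4.24 ± 1.13 (SD), followed by Timp2 with 3.14 ± 0.84, Mmp14 with 2.80 ± 0.73 and Timp3 with 2.26 ± 0.89. Mmp7 was lowest with 0.130 ± 0.110, below Mmp2 with 0.272 ± 0.083, and the ranges of all neighbours in this order overlapped. In R&Z del livers at CD 4d (n = 2), Mmp7 was the highest member with 217 ± 95.4 CPM per kilobase, and its range of 150 to 285 did not overlap that of Timp2, the next, with 17.9 ± 11.2 and 9.99 to 25.9.

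At CD 4d, Mmp7, Timp2, Timp3, Mmp23 and Adamts1 were higher in R&Z del than in R&Z flox livers, and no member was called lower. The increase of Mmp7 exceeded all others. A gene was called when edgeR's quasi-likelihood test gave an adjusted p (Benjamini-Hochberg) under 0.1 together with a change over 1 on the log2 scale. The 5 called of 10 members compare with 15.1% of the 11293 genes tested, of which 10.1% were called higher. The members' median log2 fold change was 1.36, against 0.05 over all genes. Members were chosen with earlier results of these data known, and the study names Mmp7, Mmp2 and Mmp23 as changed after chronic damage. The shares and medians therefore describe this list and are no test of the family. Fold changes are relative to TMM-scaled library sizes, and unscaled CPM overstates the R&Z del increase at this time by 0.47 on the log2 scale.

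Mmp7 encodes matrilysin, a small protease of epithelial cells that cuts matrix proteins and cell surface proteins. It had 0.133 and 0 CPM in the R&Z flox livers at CD 4d, from 4 and 0 reads. In the R&Z del livers it had 167 and 317 CPM, from 4587 and 9663 reads. The pooled ratio was 3661, with a 95% counting interval of 1429 to 13437 that covers counting error only. The log2 fold change was 11.21 ± 1.52 (SE), with an adjusted p of 0.00306 in edgeR, and adjusted p ranged from 0.00752 to 0.0386 when each library was left out in turn.

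Cholangiocyte markers moved with Mmp7. Their summed level was 220 and 384 CPM in R&Z del against 16.5 and 16.8 CPM in R&Z flox livers at CD 4d, and 4 of the 4 markers tested were called higher. Across groups the order of Mmp7 and of these markers was not the same, as the plot of both by library shows. At CD 170d, R&Z del replicate 2 had 90.7 CPM of the markers with 3.22 CPM of Mmp7, whereas R&Z del replicate 1 had 17.9 CPM of the markers with 5.97 CPM of Mmp7. In bulk tissue a change in the number of cells of a type cannot be told apart from a change in RNA per cell. The part of these markers in the result was not tested.

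**Figure D1:**
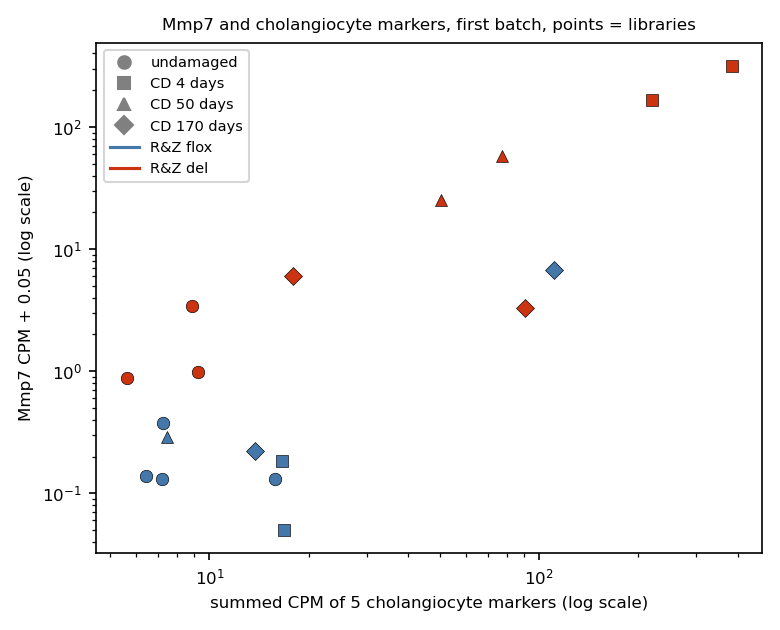
Mmp7 CPM plus 0.05 on a log scale against the summed CPM of 5 cholangiocyte markers on a log scale, for the 18 labelled libraries of the first batch (blue, R&Z flox; red, R&Z del; symbols, damage group). The 2 R&Z del libraries at CD 4d lie at the upper right with 167 and 317 CPM of Mmp7, and the 3 undamaged R&Z del libraries lie above the 4 undamaged R&Z flox libraries at low marker levels.

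Among the other proteases, Mmp23 encodes an unusual membrane-anchored member that is cleaved from the membrane when it is activated. It had 2.60 and 3.25 CPM in R&Z flox and 7.45 and 15.4 CPM in R&Z del livers at CD 4d, and the groups did not overlap. Its log2 fold change was 1.45 ± 0.48 with an adjusted p of 0.0671. Adamts1 encodes a secreted protease that cuts proteoglycans such as versican and aggrecan. It had 4.63 and 6.70 CPM against 17.4 and 20.8 CPM, again without overlap, and a log2 fold change of 1.26 ± 0.33 with an adjusted p of 0.0295. Both calls were lost when single libraries were left out, Mmp23 in 3 of 4 and Adamts1 in 2 of 4 such fits, with adjusted p up to 0.332 and 0.196. For Adamts1 these were the fits without R&Z del replicate 2 and without R&Z flox replicate 1, and for Mmp23 also the fit without R&Z flox replicate 2.

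Mmp14 encodes the membrane-type enzyme that activates the precursor of MMP2 at the cell surface, with TIMP2 as adaptor. It had 15.6 and 15.9 CPM in R&Z flox and 22.9 and 40.0 CPM in R&Z del livers, and its log2 fold change of 0.49 ± 0.23 was not called (adjusted p = 0.169). Mmp2 encodes gelatinase A. It had 3.63 and 5.15 CPM against 3.24 and 24.0 CPM, and the log2 fold change of 1.09 ± 0.72 was not called (adjusted p = 0.313). Without R&Z del replicate 2 it was -0.84, and without R&Z del replicate 1 it was 1.88 and called (adjusted p = 0.0510). Mmp12 encodes macrophage elastase. It had 2.20 and 3.49 CPM against 7.74 and 10.2 CPM, did not overlap between groups, and was not called (log2 fold change 1.17 ± 0.95, adjusted p = 0.409). Mmp19, which encodes a protease of basement membrane proteins, had 12.9 and 14.4 CPM against 15.3 and 19.5 CPM and a log2 fold change of -0.15 ± 0.25.

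Of the inhibitors, Timp2 rose most firmly. It had 9.22 and 11.9 CPM in R&Z flox and 36.2 and 93.7 CPM in R&Z del livers at CD 4d. Its log2 fold change was 2.10 ± 0.37 with an adjusted p of 0.00775, and it stayed called in the 4 fits that left out a library. Timp3, which encodes the inhibitor that is held in the matrix and also blocks several ADAM proteases, had 12.1 and 11.6 CPM against 26.5 and 68.4 CPM. Its log2 fold change was 1.48 ± 0.46 with an adjusted p of 0.0523, and the call was lost without R&Z del replicate 2 or either R&Z flox library, with adjusted p up to 0.327. Timp1, whose product is widely followed in liver fibrosis, had 2.0 and 1.83 CPM against 4.94 and 13.3 CPM without overlap and was not called (1.73 ± 1.07, adjusted p = 0.280). After TMM scaling, 8 of 10 members did not overlap and were higher in R&Z del livers, which held for 36.6% of all genes.

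**Figure D2:**
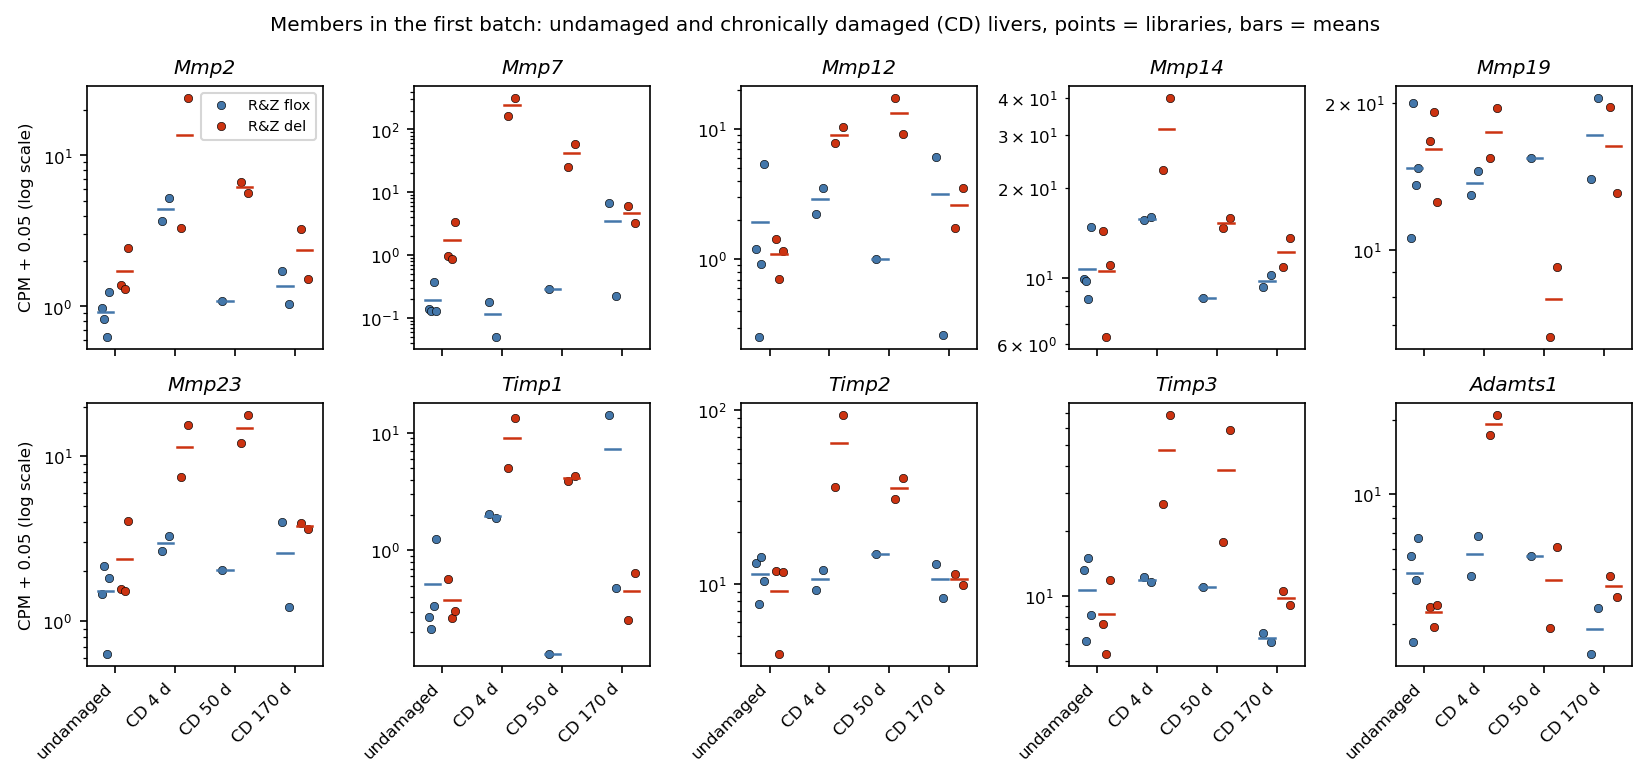
CPM plus 0.05 on a log scale of the 10 members in the labelled libraries of the first batch (blue, R&Z flox; red, R&Z del; points, libraries; bars, means; undamaged, 3M and 7M together). Mmp7 spans the widest range, from 0 to 317 CPM, and has its highest values in the 2 R&Z del libraries at CD 4d.

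Fixed lists of genes around the members were counted at CD 4d in the same way, beside the 10.1% of all genes called higher. Of 14 genes for matrix substrates and crosslinkers, 11 were tested, 7 were called higher and 0 lower. Elastin (Eln) rose by 3.72 ± 0.68 on the log2 scale, from 1.90 and 1.90 CPM to 15.8 and 56.9 CPM, and the collagen chains Col1a1 and Col1a2 rose by 3.18 ± 0.75 and 2.38 ± 0.60. Of 27 other ADAM and ADAMTS genes, 10 were tested, 5 were called higher and 1 lower. Adamts15, which encodes a versican-cutting protease, rose from 0.666 and 0.948 CPM to 57.9 and 51.5 CPM, a log2 fold change of 5.60 ± 0.73, and Adamts10 and the procollagen processing gene Adamts2 rose by 1.98 ± 0.55 and 1.93 ± 0.54. Of 15 activators and other inhibitors, 10 were tested. The protease inhibitor Serpine2 rose by 2.35 ± 0.63, while plasminogen (Plg), whose active form cuts metalloproteinase precursors, fell by 1.22 on the log2 scale (SE 0.22), and its inhibitor Serpinf2 fell by 1.42 (SE 0.26). Of 18 other metalloproteinase and inhibitor genes, Timp4 included, 1 passed the filter, with a log2 fold change of 0.68, and was not called.

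Markers of other cells moved beside these genes at CD 4d. The summed level of 5 recruited macrophage markers was 42.7 and 81.4 CPM in R&Z del against 18.8 and 22.7 CPM in R&Z flox livers, with Cx3cr1 and Ccr2 called higher of 4 tested. The 8 stellate cell and myofibroblast markers summed to 115 and 277 CPM against 81.1 and 111 CPM, with Rgs5 called higher of 7 tested. R&Z del replicate 2 was the higher of its pair in both sums and for each of the 10 members. The 6 hepatocyte markers summed to 91456 CPM in R&Z del replicate 1 and 73792 CPM in replicate 2 against 94667 and 96441 CPM, so replicate 2 was the lower of its pair here, and Serpina1c was called lower of 6 tested. Of the macrophage and Kupffer cell markers 2 of 8 tested were called lower, of the endothelial markers 2 of 6 lower, and of the lymphocyte markers 1 of 3 higher, while the neutrophil, mesothelial and pancreas markers, with 2 tested each, had medians of -0.33, 0.97 and -0.20 on the log2 scale and no call. Their part in the results was not tested.

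At CD 50d, Mmp7 and Mmp23 were called higher and Mmp19 lower in R&Z del livers, against 5.14% of genes called, 2.71% higher and 2.43% lower. All 3 calls were lost when the libraries with conflicting labels were placed by their characteristics or by their titles. The R&Z flox group had 1 library here, whose spread was assumed to be that of the other groups, and none of the 3 calls held when either R&Z del library was left out. Mmp7 had 0.240 CPM from 6 reads in the R&Z flox and 25.3 and 57.8 CPM in the R&Z del livers. The pooled ratio was 174 with a counting interval of 79.9 to 476, and the log2 fold change was 7.15 ± 1.78 (adjusted p = 0.0804). Placing the conflicting libraries by characteristics turned the value of Mmp7 to -1.35 (adjusted p = 0.964), and placing them by titles gave 1.73 (adjusted p = 0.841). Mmp23 had 2.0 CPM against 12.1 and 17.7 CPM, a log2 fold change of 2.67 ± 0.67 (adjusted p = 0.0822). Mmp19 had 15.4 CPM against 6.57 and 9.17 CPM, a log2 fold change of -1.19 ± 0.30 (adjusted p = 0.0818).

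Several uncalled members had larger differences at CD 50d than some called at CD 4d. Timp1 had 0.0800 CPM in the R&Z flox library, from 2 reads, against 3.87 and 4.30 CPM in the R&Z del livers, and Mmp12 had 0.960 CPM against 17.2 and 9.13 CPM. Their log2 fold changes were 5.40 ± 2.12 and 3.63 ± 1.43, both with an adjusted p of 0.179. Mmp2 had 1.04 CPM against 6.66 and 5.63 CPM, Timp2 14.8 against 30.6 and 40.6 CPM, and Timp3 10.9 against 17.7 and 58.8 CPM. Adamts1, in contrast to CD 4d, had 5.60 CPM in the R&Z flox against 2.84 and 6.09 CPM in the R&Z del livers. The members' median log2 fold change was 1.95, against 0.05 over all genes. Without overlap after TMM scaling, 8 members were higher and 2 lower, but with 1 R&Z flox library this held for 39.6% and 36.2% of genes.

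Recruited macrophage markers summed to 86.0 and 43.5 CPM in R&Z del against 6.20 CPM in the R&Z flox liver at CD 50d, and the library with the higher sum was also the one with more Mmp12. Cholangiocyte markers summed to 50.4 and 76.9 CPM against 7.44 CPM. The library with the higher sum had more Mmp7, although the marker Krt19 had the reverse order, with 14.2 and 12.3 CPM. Stellate cell and myofibroblast markers summed to 116 and 142 CPM against 81.8 CPM. The median log2 fold changes of these lists were 2.77, 3.42 and 0.26 without a called gene, and their part in the results was not tested. Matrix substrates were called higher in 4 of 11 tested, among them Col1a1 (4.28 ± 1.13), the crosslinking enzyme Loxl1 (3.78 ± 1.05) and Eln (3.47 ± 0.98), and Serpine2 was called higher by 3.91 ± 0.97. Of the ADAM and ADAMTS genes tested, Adam9, a membrane-bound protease, was called lower, by a log2 fold change of -1.16 ± 0.31.

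At CD 170d, 0 members were called in edgeR, against 0.638% of genes, with 1 member at an unadjusted p under 0.05. Mmp7 had 6.72 and 0.172 CPM in the R&Z flox and 5.97 and 3.22 CPM in the R&Z del livers, so the groups overlapped through R&Z flox replicate 1. With that library left out, the log2 fold change of Mmp7 went from 0.18 to 4.50 (adjusted p = 0.138). Timp1 had 14.1 and 0.429 CPM in the R&Z flox against 0.206 and 0.597 CPM in the R&Z del livers, a log2 fold change of -4.37 ± 1.25 (adjusted p = 0.268) that became -0.30 (adjusted p = 0.978) without R&Z flox replicate 1. Without R&Z flox replicate 2 the value for Timp1 was -5.32 and was called (adjusted p = 0.00398). Mmp12 had 6.07 and 0.215 CPM against 1.68 and 3.48 CPM, and its log2 fold change went from -0.51 to 3.36 (adjusted p = 0.256) without R&Z flox replicate 1. In R&Z flox replicate 1 the recruited macrophage markers summed to 8.59 CPM against 2.19 CPM in replicate 2, and the stellate cell and myofibroblast markers to 48.6 against 71.3 CPM. The neutrophil markers of this group ranged from 2.41 to 65.8 CPM. The part of these markers in the result was not tested.

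Mmp2 had 1.66 and 0.988 CPM in R&Z flox against 3.19 and 1.46 CPM in R&Z del livers at CD 170d, and Mmp23 had 3.94 and 1.16 CPM against 3.88 and 3.55 CPM. Mmp19 had 13.9 and 20.4 CPM against 19.5 and 13 CPM. Adamts1 had 2.21 and 3.44 CPM against 4.63 and 3.81 CPM, without overlap in CPM but with overlap after TMM scaling. Timp2 had 13 and 8.25 CPM in R&Z flox against 11.3 and 9.81 CPM in R&Z del livers, and Mmp14 had 9.23 and 10.2 CPM against 10.8 and 13.6 CPM. Timp3, with 6.65 and 6.06 CPM against 10.4 and 9.05 CPM, was the member whose groups did not overlap after TMM scaling, as held for 18.9% of genes in this direction, and its log2 fold change was 0.41 ± 0.46. Whether the genotype difference changed from CD 4d to CD 170d was tested itself. The change was -11.03 ± 1.79 for Mmp7, -2.31 ± 0.52 for Timp2 and -6.10 ± 1.64 for Timp1 on the log2 scale, with adjusted p of 0.0223, 0.0469 and 0.0807 in edgeR, against 7.59% of genes called. All 3 calls rest on few libraries, and without R&Z flox replicate 1 at CD 170d 0 of them remained in edgeR, with values of -6.70 for Mmp7, -2.02 for Timp1 and -1.94 for Timp2 (adjusted p = 0.173, 0.360 and 0.128). The other libraries whose removal left fewer than 3 calls were both R&Z del at CD 170d (1 and 0 calls), R&Z del replicates 1 and 2 at CD 4d (2 and 1) and both R&Z flox at CD 4d (0 and 1). From CD 4d to CD 50d the difference was called for 0 members in edgeR (1.52% of genes), with 2 at an unadjusted p under 0.05. Without R&Z del replicate 2 at CD 50d 1 was called, Adamts1.

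**Figure D3:**
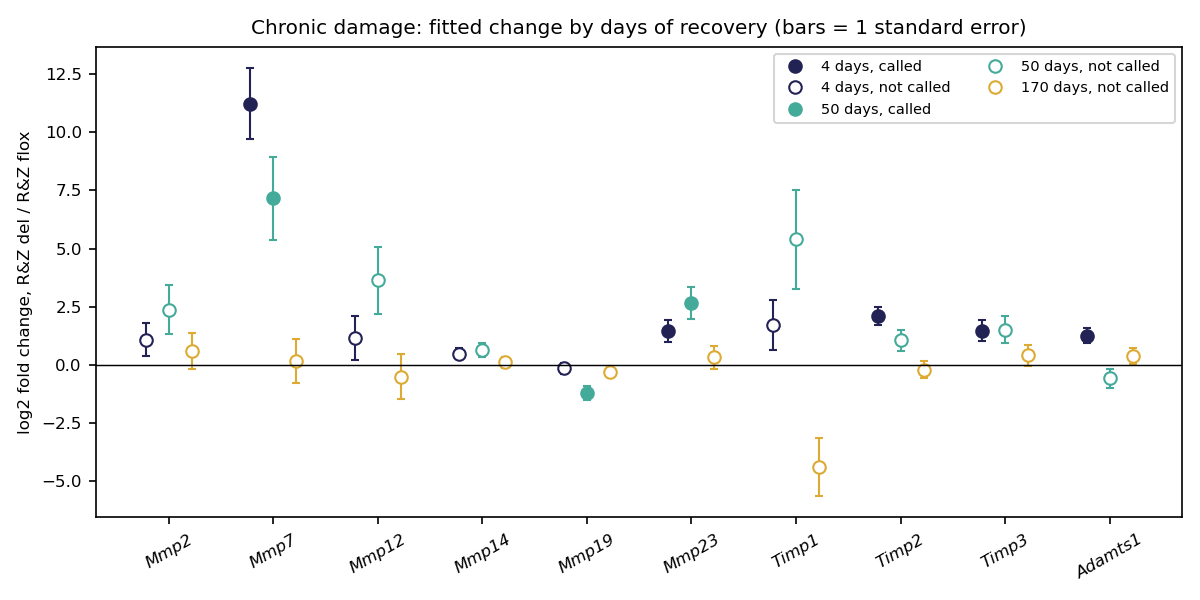
Fitted log2 fold change between R&Z del and R&Z flox (positive, higher in R&Z del) for each member at 4, 50 and 170 days of recovery from chronic damage (points, estimates; bars, 1 standard error; filled, called). Mmp7 has the highest value at CD 4d (11.21) and CD 50d (7.15), and at CD 170d Timp1 stands apart at -4.37, a value that rests on R&Z flox replicate 1.

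Damaged livers were also compared with undamaged livers of the same genotype within the first batch, with 3M and 7M pooled. In R&Z del livers at CD 4d, 9 of 10 members were called higher, with Mmp19 as the exception, against 31.3% of genes called and 21.3% called higher. Their median log2 fold change was 2.14, against 0.05 over all genes. Mmp7 went from 0.939, 0.827 and 3.35 CPM in undamaged to 167 and 317 CPM in damaged R&Z del livers, a log2 fold change of 6.23 ± 1.00 (adjusted p = 0.000485). Timp1 went from 0.518, 0.218 and 0.258 CPM to 4.94 and 13.3 CPM (4.88 ± 1.01), and Mmp12 from 1.39, 0.653 and 1.12 CPM to 7.74 and 10.2 CPM (3.13 ± 0.92). The lowest of the called values was that of Mmp14, 1.2 ± 0.24. Without R&Z del replicate 2 at CD 4d, 5 of the 9 calls were left, those of Mmp7, Mmp12, Timp1, Timp2 and Adamts1. After TMM scaling, 8 members did not overlap and were higher in damaged livers, as held for 34.5% of genes.

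In R&Z flox livers at CD 4d, 1 member was called, against 5.37% of genes. Mmp2 rose from 0.926, 0.775, 0.577 and 1.2 CPM in undamaged to 3.63 and 5.15 CPM in damaged livers, a log2 fold change of 2.27 ± 0.61 (adjusted p = 0.0520). This call was lost in fits without R&Z flox replicate 1 or 2 at CD 4d, without either R&Z flox library of 3M, or without R&Z flox replicate 1 of 7M. Timp1, with 0.221, 0.163, 0.288 and 1.2 CPM against 2.0 and 1.83 CPM, and Mmp14, with 9.88, 9.66, 8.40 and 14.7 CPM against 15.6 and 15.9 CPM, had adjusted p of 0.113 and 0.105 and did not overlap, as held for 14.6% of genes in this direction. The damage response at CD 4d differed between genotypes for Mmp7 (7.61 ± 2.22, adjusted p = 0.0357), Timp2 (2.41 ± 0.59, adjusted p = 0.0196), Adamts1 (1.75 ± 0.44, adjusted p = 0.0214) and Timp3 (1.76 ± 0.62, adjusted p = 0.0687), against 25.8% of genes. These 4 calls became 2 without R&Z del replicate 2 at CD 4d, without R&Z flox replicate 1 at CD 4d, or without R&Z flox replicate 1 of 7M. The call of Timp3 was lost in 8 of 11 fits without a library and under 3 of 9 other settings, and those of Mmp7, Timp2 and Adamts1 in 1 of 11 fits each. The response of Mmp2 was 2.38 ± 0.63 in R&Z del livers, with a difference between genotypes of 0.11 ± 0.87. Both values rest on R&Z del replicate 2 at CD 4d, and without it they were 0.44 (adjusted p = 0.581) and -1.82 (adjusted p = 0.149). At CD 50d the response difference was called for 0 members in edgeR, against 3.75% of genes, with 4 at an unadjusted p under 0.05, and at CD 170d for 0 members and 0% of genes, with 2 at an unadjusted p under 0.05.

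At CD 50d, 8 members were called in R&Z del against undamaged R&Z del livers, 7 higher and Mmp19 lower, beside 12.7% of genes called higher and 5.29% lower. The increases were 4.09 ± 0.93 for Mmp12, 4.09 ± 1.02 for Timp1, 3.99 ± 0.93 for Mmp7, 2.32 ± 0.56 for Mmp23, 1.75 ± 0.45 for Timp2, 1.72 ± 0.47 for Timp3 and 1.65 ± 0.63 for Mmp2. Mmp19 fell by 1.36 on the log2 scale (SE 0.33), and Mmp14 and Adamts1 were not called (0.50 ± 0.24 and 0.22 ± 0.34). All 8 calls were lost when the conflicting libraries were placed by characteristics or by titles. By characteristics, the library added to R&Z flox at CD 50d had 17.9 CPM of Znrf3 and that added to R&Z del had 6.74 CPM. By titles, these levels were 32.6 and 7.13 CPM. Of 5 fits without a library, the call of Mmp2 was lost in 4 and that of Timp3 in 2. The 8 called members were also those that did not overlap, as held for 25.1% of genes in the higher and 24.0% in the lower direction. At CD 170d 0 members were called in R&Z del livers by edgeR, with 0 at an unadjusted p under 0.05 and 0% of genes called. In R&Z flox livers 0 members were called at CD 50d and CD 170d, against 0.00796% of genes each. Of these, 0 and 3 had an unadjusted p under 0.05. The largest was Timp1 at CD 170d with 4.90 ± 0.91 (adjusted p = 0.131), which became 0.84 (adjusted p = 0.934) without R&Z flox replicate 1. Without R&Z flox replicate 2 at CD 170d, 3 members were called, Mmp7, Mmp12 and Timp1.

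In undamaged livers 0 members were called at 1M, 3M or 7M in edgeR, against 0.437%, 0.226% and 0.390% of genes. At an unadjusted p under 0.05 there were 1, 0 and 2 members. Mmp7 and Timp1 did not pass the filter on low counts there. In the first batch, however, Mmp7 had 0.0882, 0.0815, 0.330 and 0.0803 CPM in R&Z flox and 0.939, 0.827 and 3.35 CPM in R&Z del livers of 3M and 7M, so the groups did not overlap. The means were 0.145 ± 0.123 (SD, n = 4) and 1.70 ± 1.42 (SD, n = 3), and a two-sided exact permutation test gave p = 0.0571, the smallest that 35 regroupings allow. Mmp2 had the same order, with means of 0.871 ± 0.265 and 1.66 ± 0.64 CPM (two-sided exact permutation p = 0.0571). Its nearest libraries had 30 reads in R&Z flox and 29 reads in R&Z del. Non-overlap in this direction held for 7.77% of genes. At 7M in the second batch Mmp2 had 14.2, 8.73 and 2.11 CPM in R&Z flox and 3.56, 2.56 and 0.23 CPM in R&Z del. The R&Z del mean was lower there, with overlap (two-sided exact permutation p = 0.3). At 1M the Mmp2 means were 3.995 and 4.145 CPM (two-sided exact permutation p = 0.829). At 3M in that batch it had 15.1, 0 and 0 CPM against 0 CPM. The summed cholangiocyte markers were 6.44 to 15.8 CPM in R&Z flox and 5.61 to 9.23 CPM in R&Z del livers of the first-batch set. Of these libraries 1 of each genotype has a title that conflicts with its other labels, and without both of them the Mmp7 ranges still did not overlap. The non-overlap depends on 2 ungrouped libraries, which are R&Z flox both by titles and by characteristics. By titles the first below is undamaged and by characteristics the second, so the groups overlap in either reading. That titled R&Z flox 7M but labelled damaged had 9.69 CPM of Mmp7, and that titled R&Z flox CD 50d but labelled undamaged had 1.42 CPM. Counted as undamaged R&Z flox, the first would lie above all 3 R&Z del libraries and the second above 2 of the 3. Reads on the targeted genes in these 2 libraries lay above those of every grouped R&Z flox library of this batch. Znrf3 was at 17.9 and 32.6 CPM, against at most 9.52 CPM, and Rnf43 at 25.8 and 36.5 CPM, against at most 18.5 CPM. The 3 R&Z del libraries had 11.6 to 25.9 CPM of Znrf3 and 25.2 to 31.5 CPM of Rnf43. The genotype of the 2 libraries was not tested.

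Mmp7 had 0 reads in all 30 libraries of the second batch, 14 of them from R&Z del livers. Of 2547 shared symbols within a 2-fold range of the mean Mmp7 level in the 7M R&Z del libraries of the first batch (2.09 CPM), 10, or 0.393%, also had no read in the second batch. These symbols were matched on their level in those R&Z del libraries alone and not on that in R&Z flox livers. The share therefore cannot say how unusual the absence of Mmp7 is. Undamaged R&Z del livers had Mmp7 reads in the first batch and none in the second. At 7M the R&Z del livers of both batches were induced with tamoxifen. They had 0.827 and 3.35 CPM in the first batch and 0 reads in the second. The other R&Z del libraries of the second batch were induced with virus, and the part of the mode of deletion was not tested. Batch cannot be told apart here from the number of symbols detected. Other members were sparse in the second batch too. Timp1 had 0 reads in 26, Mmp12 in 24, Mmp23 in 14, Mmp2 in 9, Timp3 in 8 and Adamts1 in 3 of 30 libraries, whereas Mmp14, Mmp19 and Timp2 were read in all 30.

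**Figure D4:**
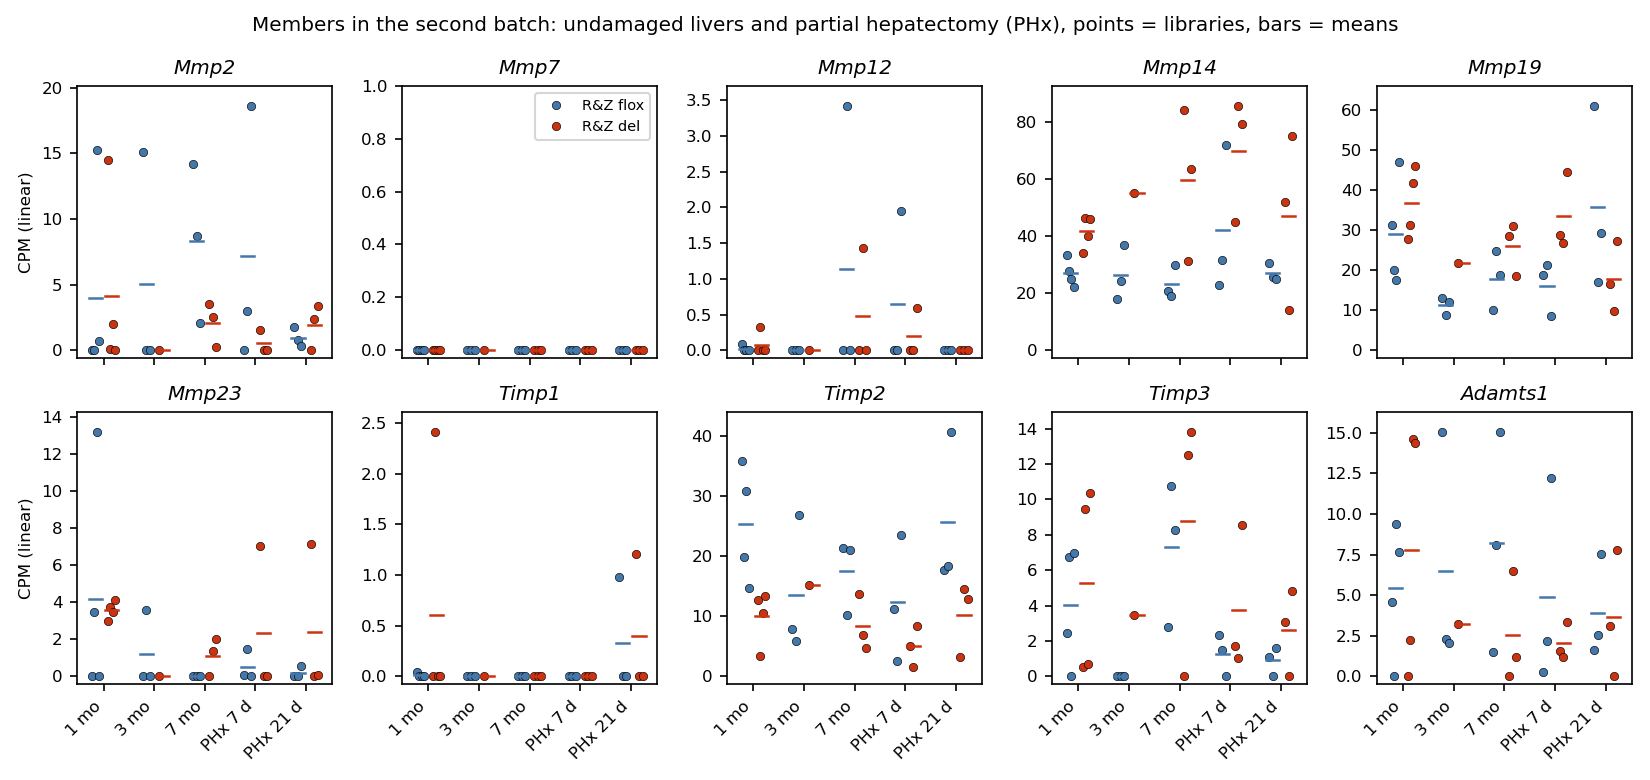
CPM on a linear scale of the 10 members in the 30 libraries of the second batch, undamaged at 1, 3 and 7 months (mo) and at 7 and 21 days (d) after PHx (blue, R&Z flox; red, R&Z del; points, libraries; bars, means). Mmp7 is at 0 throughout, R&Z del livers lie above R&Z flox livers for Mmp14 at 7M, and R&Z flox livers lie above R&Z del livers for Timp2 at 1M.

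At 1M in the second batch, Timp2 had 35.8, 19.9, 30.9 and 14.7 CPM in R&Z flox and 12.7, 3.38, 10.6 and 13.4 CPM in R&Z del livers, with means of 25.3 ± 9.72 and 10.02 ± 4.59 (SD, n = 4). The groups did not overlap, as held for 2.35% of genes in this direction, and a two-sided exact permutation test gave p = 0.0286, the smallest that 70 regroupings allow. In the fit across all genes the log2 fold change was -1.54 ± 0.53 and was not called (adjusted p = 0.318). At 7M, Timp2 had 21.4, 10.3 and 21.1 CPM in R&Z flox against 13.6, 6.95 and 4.76 CPM in R&Z del livers, and the exact permutation p was 0.2, where 0.1 is the smallest possible. The log2 fold change of Timp2 over both batches at 7M was -0.96 ± 0.47 (adjusted p = 0.591), and within the second batch it was -0.99 (adjusted p = 0.788). At 3M in that batch Timp2 had 7.88, 5.89 and 26.9 CPM in R&Z flox against 15.2 CPM in the R&Z del liver.

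Mmp14 had 33.3, 27.7, 25.0 and 22.2 CPM in R&Z flox and 34.2, 46.3, 40.2 and 45.9 CPM in R&Z del livers at 1M. Each R&Z del library was above each R&Z flox library in CPM, although this ended after TMM scaling, and the exact permutation p was 0.0571. At 7M it had 20.8, 18.9 and 29.9 CPM against 84.0, 31.4 and 63.4 CPM, without overlap after scaling, as held for 4.81% of genes in this direction. The exact permutation p was 0.1, the smallest that 3 against 3 libraries allow, and the log2 fold change over both batches was 0.80 ± 0.36 (adjusted p = 0.525). Within the second batch it was 1.49 (adjusted p = 0.314), whereas the first batch had 8.40 and 14.7 CPM in R&Z flox and 6.27 and 11.0 CPM in R&Z del livers at 7M. Mmp23 had 0 reads in the 3 R&Z flox livers and 0, 1.35 and 2.01 CPM in the R&Z del livers of the second batch at 7M. At 3M, with 1 R&Z del library in that batch, Mmp14, Mmp19 and Timp3 were above all 3 R&Z flox libraries, as held for 25.1% of genes, and Mmp14 had 18.05, 24.3 and 36.7 CPM against 55.2 CPM.

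After PHx, 0 of the 7 members tested were called at 7 days and 1 at 21 days, by an unadjusted p under 0.05 and a change over 1 on the log2 scale, the rule of the study for this experiment. This rule called 4.00% and 6.57% of genes, while an adjusted p under 0.1 called 0.274% and 0.329% and no member. Mmp7, Mmp12 and Timp1 did not pass the filter. At 21 days Mmp19 had 61.1, 17.2 and 29.3 CPM in R&Z flox and 16.6, 9.85 and 27.4 CPM in R&Z del livers. The groups overlapped, and the log2 fold change was -1.22 ± 0.55 with an adjusted p of 0.561. The call was lost without R&Z flox replicate 1, R&Z del replicate 1 or R&Z del replicate 2. At 7 days Mmp19 went the other way, with 18.8, 21.2 and 8.51 CPM in R&Z flox against 28.9, 26.9 and 44.6 CPM in R&Z del livers (0.95 ± 0.52, adjusted p = 0.854), without overlap, as held for 5.80% of genes.

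Timp2 was lower in R&Z del livers at 21 days after PHx, without passing the test. It had 17.7, 18.4 and 40.7 CPM in R&Z flox against 3.30, 14.5 and 12.9 CPM in R&Z del livers. The groups did not overlap, as held for 5.51% of genes in this direction, and the log2 fold change was -1.36 ± 0.84 (adjusted p = 0.670). At 7 days the groups overlapped, with 11.2, 2.62 and 23.5 CPM against 5.10, 1.54 and 8.47 CPM (-1.43 ± 0.80, adjusted p = 0.866). Mmp14 at 7 days had 22.9, 31.6 and 71.9 CPM in R&Z flox against 44.9, 85.7 and 79.2 CPM in R&Z del livers, a log2 fold change of 0.63 ± 0.46 (adjusted p = 0.970). The highest of the R&Z flox values was from replicate 3, the library whose counts went against its listed sex, and without it the log2 fold change was 1.27 and met the unadjusted rule. Timp2 met it without R&Z flox replicate 2, and Mmp2 without R&Z del replicate 1. At 21 days Mmp14 had 30.7, 25.7 and 25.0 CPM against 51.9, 14 and 75.2 CPM, and it met the rule without R&Z del replicate 2 (log2 fold change 1.11). Compared with undamaged livers of 1M, 0 members were called in edgeR in either genotype at either time after PHx, with 0 at an unadjusted p under 0.05. The share of genes called was 0.0235% and 0% in R&Z flox and 0.0157% and 0% in R&Z del livers at 7 and 21 days.

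The genes whose levels followed those of each member most closely over the 18 labelled libraries of the first batch were listed by Pearson's r of log2 CPM among 12562 genes. These libraries share batch, scaling and group structure, so r is a description. Mmp7 was most like Ehf (0.96), which encodes an epithelial ETS factor, and Mmp12 was most like Adam8 (0.94) and S100a4 (0.93), both of which macrophages express. Mmp23 was most like Loxl1 (0.96), Col6a2 (0.94) and the matrix gene Dpt (0.92). Timp1 was most like S100a6 (0.93), Timp2 like P3h3 (0.96), which encodes a collagen-modifying enzyme, Timp3 like Bicd2 (0.95), and Adamts1 like Mef2d (0.94). Mmp2 was most like Parvg (0.95), Mmp14 like Dbndd2 (0.95) and Mmp19 like the endoplasmic reticulum gene Txndc5 (0.91). In the 30 libraries of the second batch the r of these same pairs lay between -0.36 for Timp2 with P3h3 and 0.34 for Timp3 with Bicd2, apart from that of Mmp7, which had no reads there.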

How the data were processed

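RNA of whole mouse liver was sequenced by Smart-Seq2. Per the labels, the authors trimmed reads with Trim Galore, aligned them to mm10 with STAR 2.5.0a and counted them with featureCounts 1.5.0-p3 in the first and 1.5.0-p1 in the second batch, and deposited raw counts per gene symbol, which were used as deposited. The exon length of each gene, recorded as a score and not a sample measurement, was written by the authors' featureCounts run per the file headers. The methods name Sickle for trimming. Columns were matched to samples by their labels. Of 55 sample records 2 had no count column used here, and 5 libraries with contradicting labels were left ungrouped.

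Counts were tested with edgeR 4.0.16 (limma 3.58.1, R 4.3.3), TMM scaling and the quasi-likelihood test, on the 34490 shared symbols. Genes needed over 1 CPM in at least 3 libraries, or 6 for the genotype comparisons after chronic damage. Undamaged livers of both batches were fitted with genotype by time, sex and batch, hepatectomy with the 1M livers and sex, chronic damage in the first batch, and damaged against undamaged livers with sex. Exact permutation tests used log2(TMM-scaled CPM + 0.1). The scripts were tested on simulated data. Replicate numbers were shared between genotypes. Deviations of same-numbered libraries correlated over 0.1 in 2 of 4, 1 of 7 and 0 of 10 pairs of the damage, undamaged and hepatectomy sets. In the damage set both pairs at CD 4d had r = 0.33 and both at CD 170d had r = -0.35. With 2 libraries per group, both pairs of a time always share 1 value. The main fits did not pair libraries. The text names all 10 members, Rnf43 and Znrf3, the 3 genes most correlated with each member or fewer, and, of the pathway lists, called genes after chronic damage whose group mean passed 5 CPM, at most the 3 most increased and 3 most decreased per time. Members and lists were chosen with earlier results of these data known. Alternatives were the filter, scaling, DESeq2 1.42.0, the replicate block, other readings of the conflicting labels and leaving out each library.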

Additional observations from a re-analysis of the deposited data

Results flagged for a closer look

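Of 18 groups of a member's CPM with 4 libraries or more tested for a library far from the others, 6 were flagged. The rule is set to flag about 1 in 20 by chance, but this rate does not hold for groups with many zeros. Where 3 of 4 libraries had 0 reads, as for Mmp12 and Timp1 in both genotypes, the remaining library is always flagged, whatever its level. All 6 were at 1M in the second batch, the only time and batch with groups large enough for this test. The library apart had 0.322 CPM of Mmp12 in R&Z del and 0.0902 CPM in R&Z flox (8 and 2 reads), 14.5 CPM of Mmp2 in R&Z del and 15.2 CPM in R&Z flox (390 and 360 reads), and 2.41 CPM of Timp1 in R&Z del and 0.0451 CPM in R&Z flox livers (60 and 1 reads).

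The genotype difference changed from CD 4d to CD 170d by -11.03 for Mmp7, -6.10 for Timp1 and -2.31 for Timp2 on the log2 scale in edgeR, and by -6.70, -2.02 and -1.94, none of them called, without R&Z flox replicate 1 at CD 170d. The response to damage at CD 4d was larger in R&Z del than in R&Z flox livers by 7.61 for Mmp7, 2.41 for Timp2, 1.76 for Timp3, a call lost in 8 of 11 fits without a library, and 1.75 for Adamts1.

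The 5 libraries whose labels contradict each other entered no comparison, and members in them lay above the highest undamaged R&Z flox library of the first batch as follows. The library titled R&Z del 3M but labelled damaged had 4.58 CPM of Mmp2, 6.88 of Mmp12, 25.6 of Mmp19 and 3.54 of Mmp23. The library titled R&Z del 3M but labelled 7 months had 2.49 CPM of Mmp2, 4.41 of Mmp7, 17.1 of Mmp14 and 19.8 of Timp3. The library titled R&Z flox 7M but labelled damaged had 10.2 CPM of Mmp2, 9.69 of Mmp7, 5.44 of Mmp12, 7.73 of Mmp23, 1.997 of Timp1, 21.5 of Timp2 and 15.5 of Timp3. The library titled R&Z flox CD 50d but labelled undamaged had 1.52 CPM of Mmp2, 1.42 of Mmp7, 14.9 of Mmp14, 20.5 of Mmp19 and 15.2 of Timp2. The library titled R&Z del CD 50d but labelled 7 months had 1.65 CPM of Mmp2, 16.5 of Timp2, 20.6 of Timp3 and 7.04 of Adamts1.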

How the results depend on the processing

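Of 3880 member values recomputed under 16 settings and 47 fits without a library, 3710 stayed on their side of the threshold, of which 300 uncalled values changed sign, 105 lost and 64 gained a call, and 1 called value reversed, Mmp7 at CD 50d, to -1.35 (adjusted p = 0.964) with conflicting libraries placed by their characteristics. The cause of the changes below was not tested. In both placements Znrf3 was higher in the library added to R&Z flox at CD 50d than in that added to R&Z del, as given above. With these libraries placed by characteristics, members called went from 5 to 3 at CD 4d, from 3 to 0 at CD 50d, from 3 to 0 for the 170 against 4 day difference, from 0 to 1 in R&Z flox at CD 170d and from 8 to 0 in R&Z del at CD 50d against undamaged. Placed by titles, they went to 0 at CD 50d, in R&Z flox at CD 4d against undamaged and in R&Z del at CD 50d against undamaged. With no filter on low counts they went to 7 at CD 50d, 1 at CD 170d, 4 and 5 for the 50 and 170 against 4 day differences, 3 in R&Z flox at CD 4d and 3 at CD 170d, 2 in R&Z del at CD 170d, and 7 and 2 for the damage response differences at CD 50d and CD 170d. DESeq2 gave 6 at CD 50d, 1 at CD 170d, 1 for the 50 against 4 day difference, 2 in R&Z flox at CD 4d and 2 at CD 170d, and 2 for the response difference at CD 50d. With the R&Z flox libraries of 170 days counted at 50 days, 6 members were called at CD 50d, and with the library titled R&Z flox CD 50d counted as R&Z del 3M, 1 response difference at CD 50d. The replicate block left 0 at CD 50d and 0 at 21 days after PHx, and the 3M comparison could not be fitted with it. Sex read from counts, chosen after seeing the data, and the adjusted threshold each gave 0 at 21 days after PHx.

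Without 1 library, members called ranged from 2 to 6 at CD 4d, 0 to 0 at CD 50d, 0 to 1 at CD 170d, 0 to 1 and 0 to 5 for the 50 and 170 against 4 day differences, 0 to 1 at 7 and at 21 days after PHx, 0 to 1 and 0 to 3 in R&Z flox at CD 4d and CD 170d against undamaged, 5 to 9 and 6 to 8 in R&Z del at CD 4d and CD 50d, and 2 to 4, 0 to 3 and 0 to 2 for the response differences at CD 4d, CD 50d and CD 170d. Over all genes, calls at CD 4d went from 1707 to between 1146 and 2956, at CD 50d from 580 to between 0 and 1671, at CD 170d from 72 to between 0 and 600, and at 1M from 56 to between 14 and 301. Groups of 1 to 4 libraries and the sparse second batch limit what could be detected.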
